A study of Bos taurus with 6 samples.

Results

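bta-miR-320a, bta-miR-320b, bta-miR-484, bta-miR-877 and bta-miR-1306 are miRNAs whose precursors are made by a route that departs from the usual one, or that are cut from an unusual host transcript. They were chosen by name for that route and make up 5 of the 1030 mature miRNAs listed in the small RNA data. Liver was sampled from 3 grass-fed and 3 grain-fed Wye Angus steers, and 1 library was sequenced for each animal. Grass-fed steers received mainly alfalfa, hay or pasture and were 21 months old, and grain-fed steers received mainly corn silage, shelled corn, soybean and minerals and were 14 months old, both at market weight. Diet and age therefore cannot be told apart. All animals came from 1 closed herd and carried no genetic modification or drug treatment named in the labels.

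Most miRNAs are cut out of a long primary transcript by the Microprocessor, made of the nuclease DROSHA and its RNA-binding partner DGCR8, exported by exportin 5 and trimmed by DICER. The precursors of miR-320 and miR-484 skip the first cut. Transcription starts at the end of the hairpin, so that the precursor carries a cap and leaves the nucleus through exportin 1. miR-877 is a mirtron, a short intron that splicing rather than DROSHA releases, and its host gene ABCF1 encodes a translation factor of the ABC family. miR-1306 lies in a hairpin of the DGCR8 mRNA. The Microprocessor cuts that mRNA and so restrains the supply of its own subunit, which makes miR-1306 non-canonical by its host and not by the enzyme. These routes are background knowledge, and the libraries measure the amount of mature miRNA and not how it was made.

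The position of the precursors was compared with these routes in the RefSeq genes of ARS-UCD2.0, a newer assembly than the ARS-UCD1.2 to which the authors mapped their reads. For bta-miR-877 the precursor overlaps ABCF1 and that of bta-miR-1306 overlaps DGCR8. The precursor of bta-miR-484 lies between MARF1 and NDE1 and overlaps neither. bta-miR-320a has 2 precursors. bta-mir-320a-1 lies next to POLR3D, a subunit of RNA polymerase III, and bta-mir-320a-2 lies inside RNF180. In each of the 6 libraries the deposited counts of the 2 precursors were identical, so their shares cannot be told apart and each read is listed under both. The precursor of bta-miR-320b overlaps no annotated gene. Whether the precursors of bta-mir-320a-2 and bta-miR-320b are capped in cattle was not tested.

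Grass-fed libraries held between 3824592 and 6133960 miRNA counts and grain-fed libraries between 464875 and 892929, so every grain-fed library was shallower in miRNA counts. Depth here means these counts and not the reads sequenced. The paper reports nearly equal raw small RNA reads for the diets, with fewer clean reads and a lower mapped share in the grain-fed group. The gap in miRNA counts is wider than either of these, and its source was not tested. Levels are given as CPM, the read count relative to the miRNA reads of the library, after TMM scaling, the edgeR correction for differences in library composition. The detection floor, the level that 3 reads represent, was 0.632 to 0.787 CPM in the grass-fed and 2.92 to 5.32 CPM in the grain-fed libraries, and a library without reads allows any level up to its floor (counting error only). A miRNA was tested if more than 2 reads were counted in 2 or more libraries, and 4 of the 5 met this limit. bta-miR-320a and bta-miR-484 passed it in 6 of 6 libraries. bta-miR-877 and bta-miR-1306 passed it only through the 3 grass-fed libraries, so the filter itself favoured a higher grass-fed level for this pair. bta-miR-320b did not pass.

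**Figure D1:**
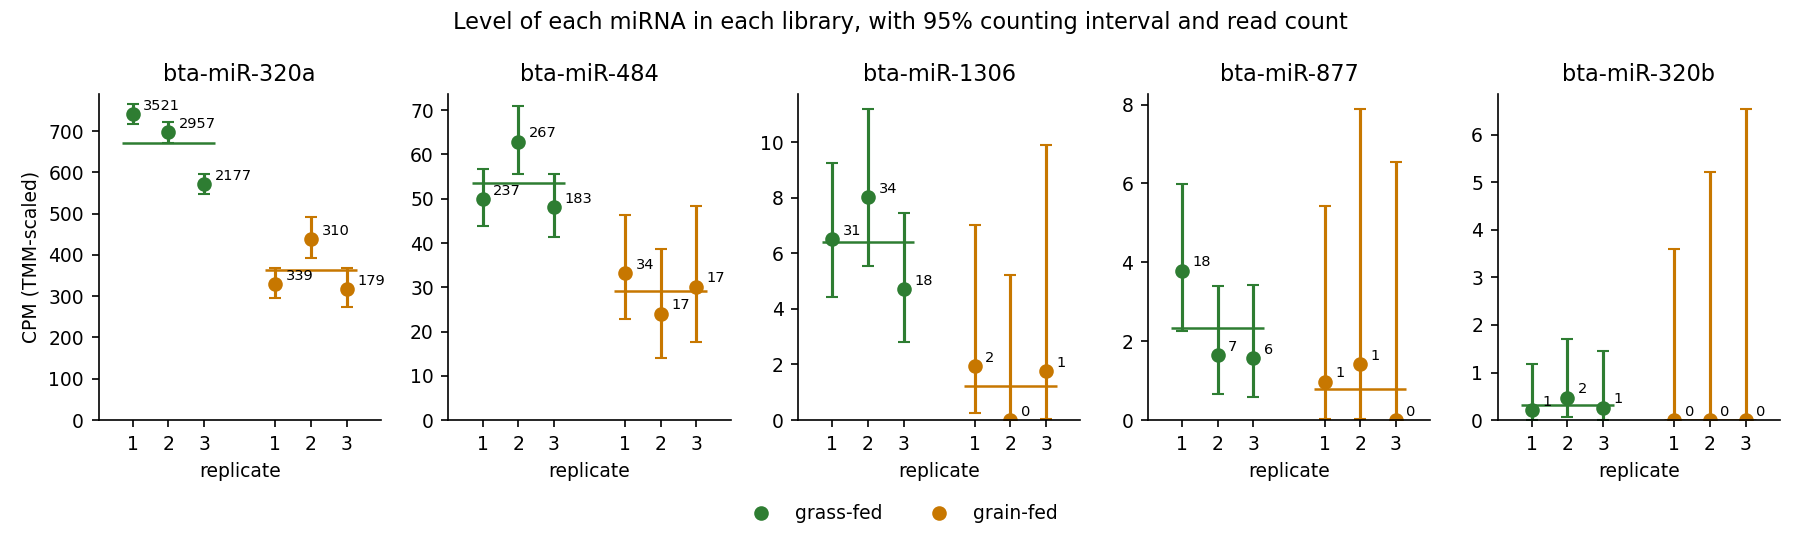
Level of each miRNA in each library in CPM after TMM scaling (vertical axis, a separate linear scale for each panel) for replicates 1 to 3 of each diet. Points are libraries with their read count beside them, error bars are exact 95% counting intervals and horizontal lines are the means of a diet. The points of bta-miR-320a and bta-miR-484 lie apart by diet, while the intervals of the grain-fed libraries are wide for bta-miR-1306, bta-miR-877 and bta-miR-320b, where they rest on 0 to 2 reads.

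bta-miR-320a was the most abundant of the 5 and was higher in grass-fed liver. It made up 90.2% to 94.5% of their summed counts in every library and ranked between 65 and 91 among all miRNAs of a library. Its level was 741, 697 and 571 CPM in the grass-fed animals and 330, 439 and 318 CPM in the grain-fed animals (replicates 1, 2 and 3). After TMM scaling the lowest grass-fed library lay above the highest grain-fed library, whereas with total counts alone grass-fed replicate 2 (482 CPM) lay just below grain-fed replicate 2 (488 CPM) and the ranges overlapped. The mean was 670 ± 88.1 CPM for the grass-fed and 362 ± 66.7 CPM for the grain-fed animals (SD, n = 3 each). The level was 1.85-fold higher in grass-fed liver, with a log2 fold change of 0.89, a standard error of 0.22 and a 95% interval from 0.40 to 1.38 (FDR = 0.0183 by the quasi-likelihood test of edgeR, adjusted by Benjamini-Hochberg over all tested miRNAs). In that test 19.1% of the 456 tested miRNAs passed FDR 0.1 in either direction, 9.43% with a higher and 9.65% with a lower level in grass-fed liver. Separate CPM ranges were found for 32.9% of the tested miRNAs, and for 19.7% with the higher values in grass-fed liver. The exact two-sided permutation test of log2 CPM after TMM scaling gave p = 0.1 for bta-miR-320a, the smallest value that 3 libraries against 3 allow.

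The call of bta-miR-320a held without any one library, with FDR between 0.0372 and 0.0984 in edgeR, the weakest being without grass-fed replicate 1. It was lost under scaling by total count alone, with a log2 fold change of 0.48 (95% interval from -0.04 to 0.99, FDR = 0.236 in edgeR).

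bta-miR-484 was the next most abundant and differed by a similar amount. It had 49.9, 62.9 and 48.0 CPM in grass-fed replicates 1, 2 and 3, from 237, 267 and 183 reads. Grain-fed replicates 1, 2 and 3 had 33.1, 24.1 and 30.2 CPM, from 34, 17 and 17 reads. The ranges of the diets did not overlap, but the counting intervals of grain-fed replicates 1 and 3, up to 46.3 and 48.3 CPM, reached into those of grass-fed replicates 1 and 3, which start at 43.7 and 41.3 CPM. The means were 53.6 ± 8.11 and 29.1 ± 4.61 CPM (SD, n = 3 each), a 1.82-fold higher level in grass-fed liver. The log2 fold change was 0.87 with a standard error of 0.28 and a 95% interval from 0.25 to 1.49 (FDR = 0.0589, edgeR). The exact permutation test gave p = 0.1.

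This call was less stable than that of bta-miR-320a. bta-miR-484 kept FDR 0.1 in edgeR without grass-fed replicate 3 (0.0899) and lost it without any of the other libraries, with FDR = 0.119 without grass-fed replicate 1, 0.107 without grass-fed replicate 2 and 0.120, 0.273 and 0.114 without grain-fed replicates 1, 2 and 3. The log2 fold change stayed between 0.66 and 0.94 under these omissions. Scaling by total count alone lowered the log2 fold change to 0.44 (edgeR FDR = 0.383). The ranges of bta-miR-484 stayed separate there, with at least 43.5 CPM in grass-fed and at most 38.1 CPM in grain-fed libraries.

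The ratio between bta-miR-320a and bta-miR-484 within a library does not depend on how libraries are scaled. There were 14.9, 11.1 and 11.9 reads of bta-miR-320a for each read of bta-miR-484 in the 3 grass-fed animals, and 9.97, 18.2 and 10.5 in the 3 grain-fed animals (replicates 1, 2 and 3). The grass-fed values lay inside the range of the grain-fed values. The mean ratio was 12.6 ± 1.99 in grass-fed and 12.9 ± 4.62 in grain-fed liver (SD, n = 3 each). The log2 ratio differed by 0.04 between the diets (exact two-sided permutation p = 0.9, or 0.9 after adjustment over 10 pairs of miRNAs), and by -0.11 to 0.31 with each library left out in turn. With reads summed over each diet, the grass-fed ratio was 1.03 times the grain-fed ratio, with an exact 95% interval from 0.786 to 1.34 that covers counting error only. Among the grain-fed libraries the ratio itself ranged from 9.97 to 18.2, but it rests on 34, 17 and 17 reads of bta-miR-484. Counting error alone would give these reads a coefficient of variation of 22.1%, against 15.8% observed for the CPM of bta-miR-484 after TMM scaling. That comparison is for the level of bta-miR-484 and not for the ratio, which spread more widely (SD 4.62 around a mean of 12.9). For the ratio, spread between animals and counting error were not separated, and the range limits the difference in response that could be detected.

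**Figure D2:**
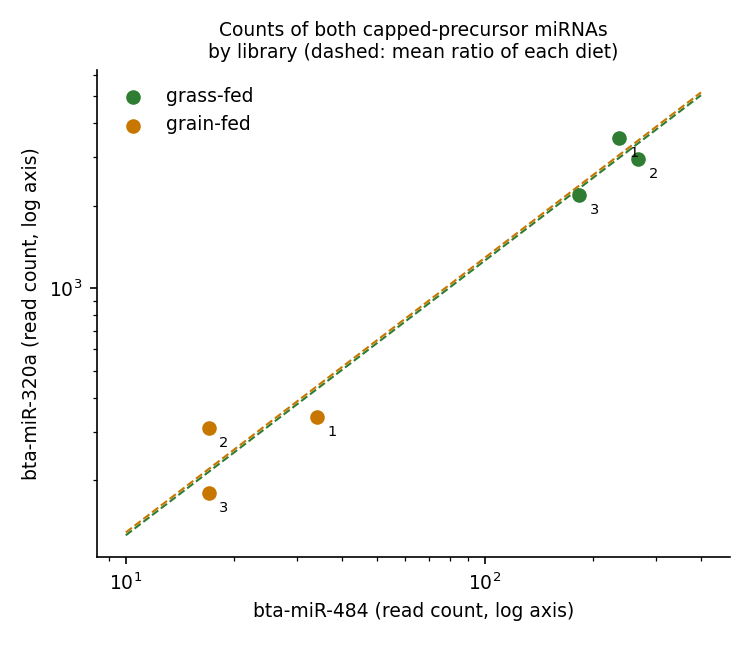
Read counts of bta-miR-320a (vertical axis, logarithmic) against those of bta-miR-484 (horizontal axis, logarithmic) in each library, with the replicate number beside each point. Dashed lines show the mean ratio of each diet, 12.6 in grass-fed and 12.9 in grain-fed liver, and nearly coincide. Grain-fed replicate 2, at 18.2, lies farthest from them.

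bta-miR-1306, the miRNA of the DGCR8 mRNA, had the largest fitted difference of the 4 tested, and its grain-fed level rests on 3 reads. Grass-fed replicates 1, 2 and 3 had 31, 34 and 18 reads, or 6.53, 8.01 and 4.72 CPM. Grain-fed replicates 1, 2 and 3 had 2, 0 and 1 reads, or 1.95, 0 and 1.77 CPM. Every grain-fed library was below every grass-fed library, yet all 3 grain-fed values lay under the floor of their own library. The means were 6.42 ± 1.65 and 1.24 ± 1.08 CPM (SD, n = 3 each). The fitted log2 fold change was 2.27 with a standard error of 0.73 and a 95% interval from 0.70 to 3.83 (FDR = 0.0493, edgeR), and the exact permutation test gave p = 0.1. Because bta-miR-1306 was tested only through its grass-fed libraries, the filter favoured this direction, and these values are no independent support for it. Of 93 tested miRNAs with no grain-fed library above 2 reads, 71 had a positive log2 fold change. bta-miR-1306 was the 1 among them that passed FDR 0.1.

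Reads of bta-miR-1306 summed over each diet numbered 83 and 3. The grass-fed level was 4.96 times the grain-fed level after TMM scaling, with an exact 95% counting interval from 1.64 to 24.6, and 3.67 times with total counts (1.21 to 18.1). These intervals do not include the spread between animals, nor the favour that the filter gave to a higher grass-fed level. At the grass-fed level the grain-fed libraries would have held 14.9 reads after TMM scaling and 11.0 with total counts. The call was lost without any of the grain-fed libraries, with log2 fold changes of 2.91, 1.66 and 2.41 and FDR = 0.143, 0.220 and 0.117 without replicates 1, 2 and 3 in edgeR. It held without any of the grass-fed libraries. It was also lost in DESeq2 (FDR = 0.175) and with total counts alone (log2 fold change 1.84, FDR = 0.136 in edgeR).

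bta-miR-877, the mirtron, did not pass FDR 0.1. Grass-fed replicates 1, 2 and 3 had 18, 7 and 6 reads, or 3.79, 1.65 and 1.57 CPM, and grain-fed replicates 1, 2 and 3 had 1, 1 and 0 reads, or 0.974, 1.42 and 0 CPM. Grass-fed replicate 1 stood above the other two, which were close to the highest grain-fed library. The ranges were separate after TMM scaling and overlapped with total counts alone. The means were 2.34 ± 1.26 and 0.797 ± 0.724 CPM (SD, n = 3 each). The log2 fold change was 1.42 with a 95% interval from -0.60 to 3.43 (FDR = 0.368, edgeR). The exact permutation test gave p = 0.1. Summed reads were 31 and 2, a ratio of 2.78 after TMM scaling with an exact 95% counting interval from 0.707 to 24.0. The interval reaches from a lower to a much higher grass-fed level, so a difference was not detectable at this depth. Without grass-fed replicate 1 the log2 fold change was 0.77 (FDR = 0.664, edgeR).

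bta-miR-320b was at the edge of detection in grass-fed liver and was not seen in grain-fed liver. It had 1, 2 and 1 reads in grass-fed replicates 1, 2 and 3, or 0.211, 0.471 and 0.262 CPM, and 0 reads in the 3 grain-fed libraries. The 4 grass-fed reads amount to 0.312 CPM over the group, where 3 reads over the grain-fed group amount to 1.31 CPM. The grass-fed level is thus below what the grain-fed libraries could show, and no fold change is given. At the grass-fed level the grain-fed libraries would have held 0.718 reads in all.

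**Figure D3:**
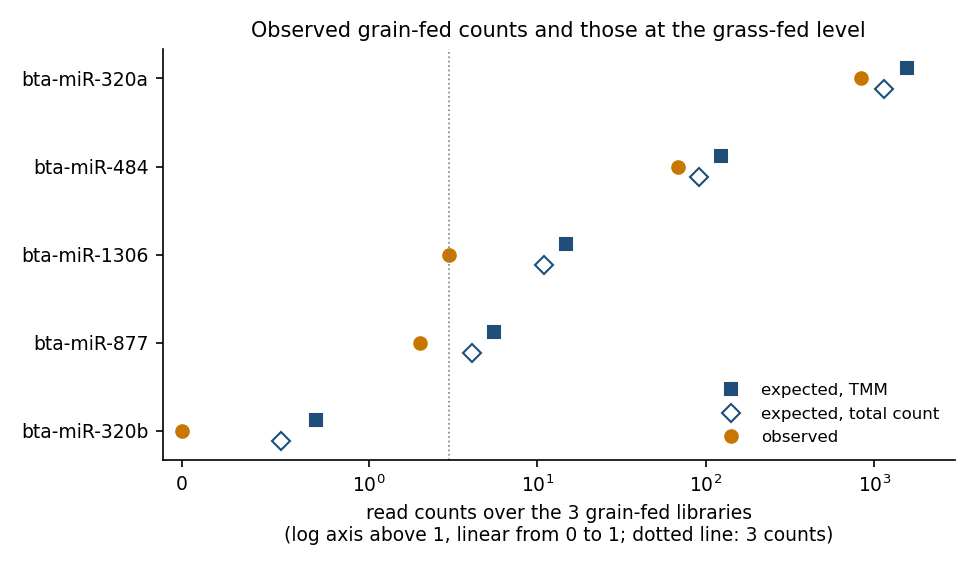
Reads over the 3 grain-fed libraries for each miRNA (horizontal axis, logarithmic above 1 and linear from 0 to 1). Circles are the observed reads, and squares and diamonds the reads that the grass-fed level would give after TMM scaling and with total counts. bta-miR-1306 had 3 reads where 14.9 or 11.0 would be held, while bta-miR-877 and bta-miR-320b would hold 5.56 or fewer.

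The log2 ratios of all 10 pairs of the 5 miRNAs were compared between the diets. For 5 pairs the ranges were separate with an exact p = 0.1 (0.2 after adjustment over the pairs), the smallest the exact permutation test allows, and each of these pairs holds bta-miR-320b or bta-miR-1306. Such ratios depend on the number added to each count. The log2 ratio of bta-miR-320a to bta-miR-1306 differed by -1.05 (grass-fed minus grain-fed) with 0.5 added to each count and by 0.08 with 2 added. With reads summed over each diet and nothing added, there were 8.28 reads of bta-miR-484 for each read of bta-miR-1306 in grass-fed and 22.7 in grain-fed liver. The grain-fed ratio was 2.74 times the grass-fed ratio, with an exact 95% counting interval from 0.866 to 13.9 that includes 1. A change of bta-miR-1306 beyond that of bta-miR-484 was therefore not detectable at this depth, before the spread between animals is counted.

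The size of each difference followed the scaling of the libraries. With TMM the tested miRNAs had a median log2 fold change of 0.13, which became 0.31 with the upper-quartile method and -0.29 with total counts alone. Relative to that median, bta-miR-320a was higher in grass-fed liver on the log2 scale by 0.75 with TMM, 0.75 with the upper-quartile method and 0.76 with total counts. bta-miR-484 was higher by 0.73, 0.73 and 0.72 relative to the same medians. bta-miR-1306 was higher by 2.13, 2.11 and 2.13. A scaling moves all miRNAs together, so subtracting the median of the same fit removes that shift by construction. That these relative values barely differed between the 3 scalings is therefore no test of stability. Of the 87 DEmiRNAs (miRNAs past FDR 0.1 in edgeR) 43 were higher in grass-fed liver with TMM, against 9 of 74 with total counts and 82 of 124 with the upper-quartile method. The paper reports that most of its DEmiRNAs were lower in grass-fed liver. That balance is nearer to the fit with total counts, which called none of the 4 tested miRNAs, than to the TMM fit. The paper does not name the scaling it used in edgeR.

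**Figure D4:**
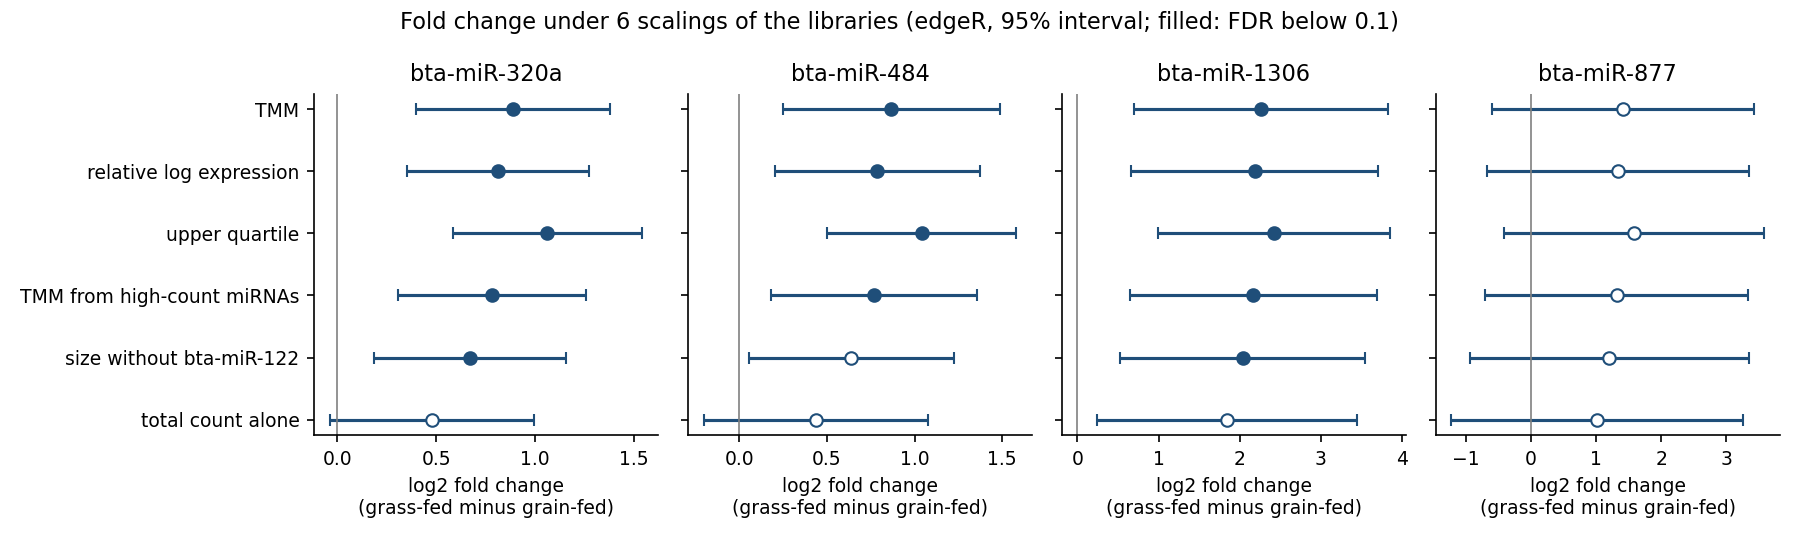
Log2 fold change (grass-fed minus grain-fed, horizontal axis) of the 4 tested miRNAs under 6 scalings of the libraries, with 95% intervals from edgeR. Filled points passed FDR 0.1. All points lie above 0, and with total counts alone none is filled.

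Markers of cell types were read beside these differences. The summed level of 4 hepatocyte miRNAs (bta-miR-122, bta-miR-192, bta-miR-194 and bta-miR-885) was 364084 to 545960 CPM in grass-fed and 191711 to 253928 CPM in grain-fed libraries. The sum separated the diets in the same direction as bta-miR-320a and bta-miR-484, but it is mostly bta-miR-122 and the list was split. bta-miR-122, the main hepatocyte miRNA, and bta-miR-192 were higher in grass-fed liver, with log2 fold changes of 1.12 (FDR = 0.00417, edgeR) and 0.65 (FDR = 0.0285). bta-miR-885 (0.41, FDR = 0.453) and bta-miR-194 (-0.43, FDR = 0.300) did not pass FDR 0.1 in edgeR, and the fitted value of bta-miR-194 was in the other direction. The part of hepatocyte content in the difference of bta-miR-320a and bta-miR-484 was not tested. Library sizes were also taken without bta-miR-122 and with no TMM scaling, a setting chosen after the data were seen. There bta-miR-320a kept FDR 0.1 (log2 fold change 0.67, FDR = 0.0741 in edgeR), as did bta-miR-1306 (2.04, FDR = 0.0765). bta-miR-484 did not (0.64, FDR = 0.163). The like setting with bta-miR-122 left in is total counts alone. It gave lower log2 fold changes of 0.48, 1.84 and 0.44 for bta-miR-320a, bta-miR-1306 and bta-miR-484. The 3 erythroid miRNAs (bta-miR-451, bta-miR-144 and bta-miR-486) summed to 419 to 643 CPM in grass-fed and 465 to 665 CPM in grain-fed libraries, which overlap, with bta-miR-144 at 0 in at least 1 library. The 5 leukocyte miRNAs (both arms of bta-miR-142, bta-miR-223, bta-miR-150 and bta-miR-155) summed to 743 to 993 and 943 to 1132 CPM, which also overlap. Their median log2 fold change was -0.51. Fitted values were lower in grass-fed liver for bta-miR-142-3p (-0.98), bta-miR-223 (-0.62), bta-miR-150 (-0.51) and bta-miR-142-5p (-0.13), and higher for bta-miR-155 (0.40). Of the 8 erythroid and leukocyte miRNAs 0 passed FDR 0.1 in edgeR, while DESeq2 called 1, limma-voom 0 and edgeR with total counts alone 3. Over all 456 tested miRNAs the same settings called 87, 87, 94 and 74. An unadjusted edgeR p under 0.05 was found for 3 of the 8, and that share is not given here for all tested miRNAs. In whole tissue, fewer cells of a type and less RNA per cell cannot be told apart.

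A list of 11 other miRNAs with a known non-canonical route was written from general knowledge, and 8 were in the files. The mirtrons bta-miR-1224 and bta-miR-1225-3p and the snoRNA-derived bta-miR-664a had 0 reads in all 6 libraries. That leaves bta-miR-877 as the only mirtron of these lists with reads. Of the other 5, 1 was higher and 2 were lower in grass-fed liver at FDR 0.1 in edgeR, with a median log2 fold change of -0.34, where the median over all tested miRNAs was 0.13 and 19.1% were called.

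The called members of the list are snoRNA-derived. bta-miR-664b had 91.8, 97.3 and 102.9 CPM in grass-fed and 34.1, 62.3 and 49.7 CPM in grain-fed replicates 1, 2 and 3, with no overlap, and a log2 fold change of 1.03 with a standard error of 0.27 (FDR = 0.0240, edgeR). The call was lost without grain-fed replicate 1 (0.74, FDR = 0.161), with total counts alone (0.63, FDR = 0.240) and with library sizes without bta-miR-122 (0.83, FDR = 0.104). bta-miR-1291 was lower, with 10.1, 14.6 and 11.8 CPM in grass-fed and 31.2, 21.2 and 26.6 CPM in grain-fed replicates 1, 2 and 3. Its log2 fold change was -1.14 (FDR = 0.0311, edgeR), and without grain-fed replicate 1 it was -1.02 (FDR = 0.137). bta-miR-1248 was 16.3-fold higher in grain-fed liver (FDR = 2.81e-06, edgeR).

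bta-miR-1839, also snoRNA-derived, and bta-miR-451, which is cut by AGO2 in place of DICER, did not pass FDR 0.1 in edgeR after TMM scaling. The level of bta-miR-1839 was 187 ± 8.36 CPM in grass-fed and 182 ± 18.0 CPM in grain-fed animals (SD, n = 3 each). The log2 fold change was 0.04 with a 95% interval from -0.43 to 0.50 (FDR = 0.933, edgeR). Its sign turned with the scaling. The level of bta-miR-451 was 377 ± 104 and 476 ± 98.4 CPM in the same order (SD, n = 3 each). Its log2 fold change was -0.34 (FDR = 0.442, edgeR), or -0.78 with total counts alone (FDR = 0.0434, edgeR).

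**Figure D5:**
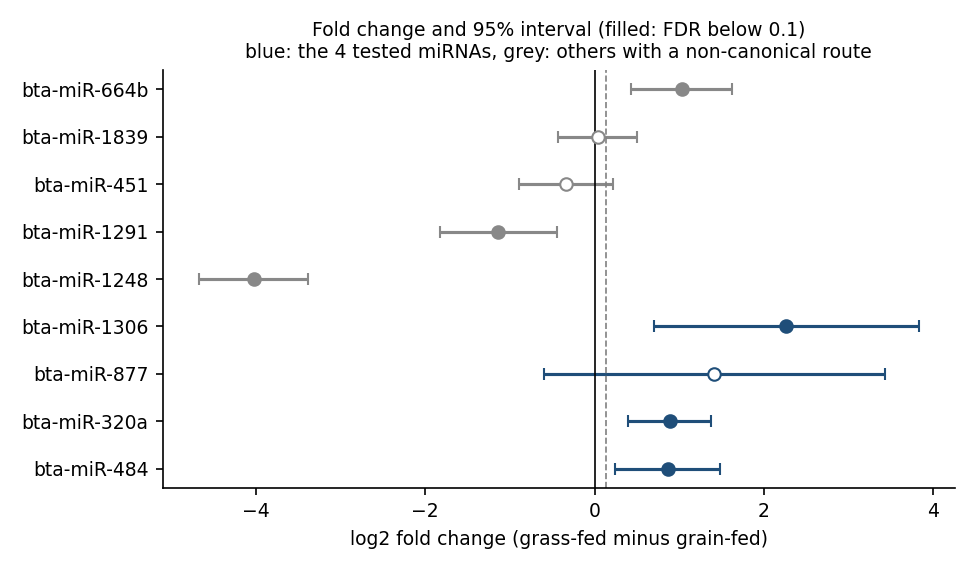
Log2 fold change (grass-fed minus grain-fed, horizontal axis) with 95% intervals from edgeR for the 4 tested miRNAs in blue and for 5 other miRNAs with a non-canonical route in grey. The solid line marks 0 and the dashed line the median of all tested miRNAs, 0.13. Filled points passed FDR 0.1, and they lie on both sides of 0, from -4.03 for bta-miR-1248 to 2.27 for bta-miR-1306.

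Likeness of pattern was measured as Pearson's r of log2 CPM over the 6 libraries, which share diet, age and depth, among tested miRNAs with a mean of at least 10 CPM. It is given as a description. Closest to bta-miR-320a were bta-miR-200b (r = 0.984) and bta-miR-27b (r = 0.970), with log2 fold changes of 1.11 and 0.17. Closest to bta-miR-484 were bta-miR-340 (r = 0.994) and bta-miR-128 (r = 0.986). bta-miR-128 was also near bta-miR-1306 (r = 0.975), after bta-miR-494 (r = 0.976). bta-miR-200c (r = 0.920) and bta-miR-1271 (r = 0.919) came closest to bta-miR-877. Among the 4 tested miRNAs themselves, r was 0.961 for bta-miR-484 with bta-miR-1306, 0.839 for bta-miR-320a with bta-miR-877, 0.799 for bta-miR-320a with bta-miR-484, 0.670 for bta-miR-320a with bta-miR-1306, 0.526 for bta-miR-484 with bta-miR-877 and 0.410 for bta-miR-877 with bta-miR-1306. Every value that includes bta-miR-877 or bta-miR-1306 rests on few grain-fed reads.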

How the data were processed

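The authors sequenced small RNA from 6 livers, trimmed the reads and filtered them by quality and length, aligned them to ARS-UCD1.2 and used miRDeep2 (version not given in the sources used here) to count the known miRNAs of miRBase. The submitters' processing notes also name FastQC 0.11.5 and Trimmomatic 0.36. The deposited counts are unscaled and listed for 1207 pairs of a mature miRNA and a precursor, and the deposited CPM, which the authors scaled to the sum over these pairs, was not used. Reads that match several precursors are repeated, so each mature miRNA was given its largest count over precursors.

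Each miRNA with more than 2 reads in 2 or more libraries was tested in edgeR (version 4.0.16, R version 4.3.3) by quasi-likelihood after TMM scaling, with FDR 0.1 as in the study. Standard errors were derived from the log2 fold change and the F statistic, and counting intervals are exact 95% binomial (Clopper-Pearson) intervals. Log2 CPM used a prior count of 2, and log2 ratios a pseudocount of 0.5. Alternatives used limma version 3.58.1, DESeq2 version 1.42.0, other scalings and filters, a replicate block and each library left out. Libraries of a diet differed by more than sampling noise (chi-square of at least 33.7 per degree of freedom). The labels name no batch. The miRNAs and lists were chosen with earlier results of these data known, and the named miRNAs are the 5 described, the list of other routes, and the 2 most like each tested miRNA. Sequences and shared seeds were not analysed here.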

Additional observations from a re-analysis of the deposited data

How the results depend on the processing

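The direction of the 4 tested miRNAs held under every alternative that gave a value. bta-miR-320a lost FDR 0.1 under 1 alternative, total counts alone (log2 fold change 0.48), and ranged from 0.73 to 0.96 when single libraries were omitted. bta-miR-484 lost it with total counts (0.44), with the replicate block (0.86, FDR = 0.112) and with library sizes without bta-miR-122 (0.64), missed FDR 0.05 (0.87), and ranged from 0.66 to 0.94 over the same omissions. bta-miR-1306 lost it with total counts (1.84), in DESeq2 (2.24) and without any of the grain-fed libraries, and ranged from 1.66 to 2.91 over the omissions. bta-miR-877 was called under none (smallest FDR = 0.266 in edgeR, upper-quartile normalization), ranged from 0.77 to 1.79 over the omissions, and had no value with at least 10 counts in 3 libraries. bta-miR-320b had a value only without a filter (2.86, FDR = 0.602, edgeR). The replicate numbers share no animal, and deviations of same-numbered libraries had correlations of -0.05, -0.20 and -0.01. The replicate block gave 82 DEmiRNAs against 87 and changed no other call among the 4.

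The count of DEmiRNAs ranged from 49, without grain-fed replicate 2, to 86 when single libraries were omitted. Of the other miRNAs with a non-canonical route 1 to 3 were called, with 1 without grain-fed replicate 1. bta-miR-1839 turned to -0.36 with total counts, -0.0323 with relative log expression scaling, -0.0326 in DESeq2, -0.0888 with at least 10 counts in 3 libraries, -0.00205 with counts summed over precursors, -0.16 without bta-miR-122 in the library sizes and -0.0608 with TMM factors from miRNAs with at least 10 counts in all libraries, and ranged from -0.0737 to 0.0586 when single libraries were omitted.

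Mean levels of bta-miR-320a moved from 670 to 582 CPM in grass-fed liver with total counts, and to 1165 (grass-fed) and 608 CPM (grain-fed) when summed over its 2 identical precursor entries. bta-miR-484 moved to 33.8 CPM in grain-fed liver with total counts and to 24.4 CPM with summed precursors. The log2 ratio of bta-miR-320a to bta-miR-1306 turned to 0.0843 with a pseudocount of 2. Depth limits bta-miR-1306, bta-miR-877 and bta-miR-320b in grain-fed liver, where they had 3, 2 and 0 reads in all.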
